A study of Mus musculus with 48 samples.

Results

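The comparison described here sets 2 ATAC-seq libraries of transitional tumour-infiltrating CD8 T cells (Ttran) against 2 libraries of progenitor cells (Tprog), both from aged hosts and both carrying the control guide, which the labels call OTC. These are 4 of the 48 libraries of the series, chosen by their labels alone, and each gives a value for the same 53868 peaks. ATAC-seq uses a transposase to cut and tag DNA that is not packed away in chromatin, so the number of reads in a peak measures how accessible that stretch was in the sorted cells. All sorted cells derived from the spleens of CD45.1 donors expressing Cas9 and OT-1, a transgenic receptor that recognises ovalbumin. They were transduced with a lentiviral guide vector marked by an ametrine reporter and transferred 1 day before B16-OVA melanoma, a mouse tumour line expressing ovalbumin, was implanted. Donor cells were sorted from the tumours at day 15, with cells of independent mice pooled into 2 or 3 replicates per group and 5000 to 50000 cells per combination. Tprog cells were gated as Slamf6+ Tim-3-, Ttran cells as Slamf6+ Tim-3+, terminal cells (Tterm) as Slamf6- Tim-3+ and the fourth state (Ttad) as Slamf6- Tim-3-. The labels name Ttran transitory and effector-like. Sample names carry A or Y, taken here to mean aged or young hosts, and ages in months are not given in the sources used here. The other groups used for comparison were Ttran and Tprog of young hosts with the control guide (3 and 2 libraries), the same states of aged hosts with guides against Zfp219 or Dusp5 (2 libraries per state), and Tterm and Ttad of aged control hosts (2 each).

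CD8 T cells that meet antigen for weeks in a tumour become exhausted, a state with inhibitory receptors and limited effector function. Within the exhausted pool, progenitor cells keep the transcription factor TCF1 (the product of Tcf7), renew themselves and give rise to transitional cells, which regain effector features, and to terminally exhausted cells. Stem-like cells are known for Tcf7, Lef1, Bach2, Id3, Slamf6, Ccr7 and Cxcr5, while Prdm1, Id2, Havcr2 (the gene of Tim-3), granzymes and the chemokines Ccl3, Ccl4 and Ccl5 mark their more differentiated descendants. A peak at such a gene is often an enhancer or promoter, but its accessibility is not the gene's expression, which was not measured in these libraries.

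The promoters of 4 genes that lay inside peaks differing between the states are shown first, because they carry the sequence of the results on a stem-like factor, a sorting marker, an effector factor and a chemokine. Each is a RefSeq window of 300 bases in GRCm38.p6 (the sequence of mm10), from 250 bases before to 50 bases after an annotated start, written 5′ to 3′ along the gene. They were chosen after the peak values were seen. Capitals mark matches to 12 short motifs searched on both strands, and here they are TGANTCA (AP-1), GGGTGTGG (Klf), CCGGAAG (Ets), AAAGGTCA (Nr4a), CAGGTG (E-box) and TGTGGTT (Runx), the last overlapping the Klf match at Havcr2. No motif searched matched the Ccl3 window. Windows not printed include those of Zeb2 (2 AP-1 matches), Cd101 and Lamp1, which lay in lower peaks (log2 fold change -0.34, -1.27 and -0.66). A second Tcf7 window in the same lower peak, also not printed, matched no motif searched.
Tcf7, chr11:52282546-52282845, minus strand: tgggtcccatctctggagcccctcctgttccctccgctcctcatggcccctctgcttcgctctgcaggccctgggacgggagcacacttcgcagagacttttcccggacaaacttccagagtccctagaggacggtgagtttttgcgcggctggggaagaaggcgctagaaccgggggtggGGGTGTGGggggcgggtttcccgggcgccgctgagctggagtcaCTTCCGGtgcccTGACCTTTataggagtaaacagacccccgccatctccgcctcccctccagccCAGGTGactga
Havcr2, chr11:46454681-46454980, plus strand: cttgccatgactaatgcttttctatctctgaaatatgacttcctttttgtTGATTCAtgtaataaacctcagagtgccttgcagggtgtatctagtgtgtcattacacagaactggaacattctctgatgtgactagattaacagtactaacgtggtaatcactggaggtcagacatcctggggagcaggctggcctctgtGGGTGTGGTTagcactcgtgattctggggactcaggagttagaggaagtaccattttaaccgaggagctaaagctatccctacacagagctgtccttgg
Prdm1, chr10:44458699-44458998, minus strand: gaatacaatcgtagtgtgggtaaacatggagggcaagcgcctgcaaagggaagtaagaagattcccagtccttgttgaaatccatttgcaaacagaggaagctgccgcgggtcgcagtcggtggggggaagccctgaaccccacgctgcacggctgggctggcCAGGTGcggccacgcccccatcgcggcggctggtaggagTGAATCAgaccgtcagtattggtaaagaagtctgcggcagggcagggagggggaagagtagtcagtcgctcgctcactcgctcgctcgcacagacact
Ccl3, chr11:83649329-83649628, minus strand: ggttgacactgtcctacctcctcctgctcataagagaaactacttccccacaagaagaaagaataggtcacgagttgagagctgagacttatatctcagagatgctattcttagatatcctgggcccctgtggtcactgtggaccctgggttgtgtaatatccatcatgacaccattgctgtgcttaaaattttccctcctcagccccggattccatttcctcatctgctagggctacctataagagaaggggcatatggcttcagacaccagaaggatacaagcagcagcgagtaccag
The peak over the Tcf7 window was lower in Ttran and those over the other windows were higher, with values given below. A match is a description of letters and says nothing about whether a factor was bound.

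The 4 libraries held 11511619 and 14660613 reads in peaks (Tprog) and 9060635 and 8547780 (Ttran), within the range of 5638413 to 29942755 over the series. Across peaks, which are not independent replicates, log2 values correlated at 0.967 between the Tprog libraries, at 0.942 between the Ttran libraries and at 0.924 to 0.929 between states. All 12 T-cell marker genes had peaks, and their summed level was 23226 and 22908 normalized reads in Tprog and 26918 and 26696 in Ttran. Most of that difference was at Thy1, which is described below (545 and 557 against 3392 and 3415), and the other 11 genes summed to 22681 and 22351 in Tprog and 23526 and 23281 in Ttran. Cd79a, Ms4a1, Csf1r, Adgre1, Lyz2, Foxp3, Tyr, Tyrp1, Dct, Sox10, Cdh5 and Kdr had no overlapping peak. Cd4 had 1, called higher, with 228 and 211 normalized reads in Tprog and 367 and 505 in Ttran. The CD4 and Treg list summed to 1225 and 1259 in Tprog and 1443 and 1680 in Ttran. Called peaks also overlapped Pax5 (2 lower), Itgam (1 lower), and Spi1, Cd68 and Pmel (1 higher each). The summed level was 1230 and 1112 against 928 and 1022 for the B-cell list, 1493 and 1635 against 1643 and 1854 for the myeloid list, and 2907 and 2953 against 3105 and 3148 for the melanoma list. For the endothelial and fibroblast list it was 2954 and 2839 in Tprog and 3329 and 3458 in Ttran, with 4 peaks higher, all at Pecam1, which T cells can also express. The part of other cell types in the results was not tested.

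Chromatin accessibility differed between Ttran and Tprog at 9144 of 53868 peaks (17%) in aged control hosts. The call is a Benjamini-Hochberg adjusted p under 0.05 from limma on log2(normalized reads + 1), fitted over all 48 libraries so that groups of 2 share an estimate of the spread. At 5384 peaks (9.99%) Ttran was higher and at 3760 (6.98%) it was lower. The rises were more numerous and smaller, with a median log2 fold change of 0.69 (1.62-fold), while the falls had a median of -0.94 (1.92-fold lower). Among peaks of like mean level the sizes were close. Among the 13467 strongest peaks the medians of called rises and falls were 0.43 and -0.43, and among the 13467 weakest 1.96 and -2.18. In the level groups between, they were 0.85 and -0.77, and 1.31 and -1.32. At 3416 called peaks (6.34%) the log2 fold change was 1 or more in size, with 1660 higher (3.08%) and 1756 lower (3.26%). Among the 741 called peaks with at least a 4-fold difference the order turned: 253 were higher and 488 lower. The median over all peaks was -0.02, and at 82 called peaks the libraries of the states overlapped. Over all peaks the libraries did not overlap at 26.8% with Ttran higher and at 27.4% with Ttran lower, so a lack of overlap alone says little. Without a library the count fell to 5294 (3524 higher and 1770 lower, without Tprog replicate 1), 5866 (3858 and 2008, without Tprog replicate 2), 6810 (without Ttran replicate 1) or 6781 (without Ttran replicate 2). DESeq2 on the 4 libraries alone called 6012. The libraries are pools of mice, so p-values measure the spread between pools. An exact two-sided permutation test of 2 against 2 libraries cannot give a p below 0.333. In such bulk samples, fewer cells with an open site and less opening per cell cannot be told apart.

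**Figure D1:**
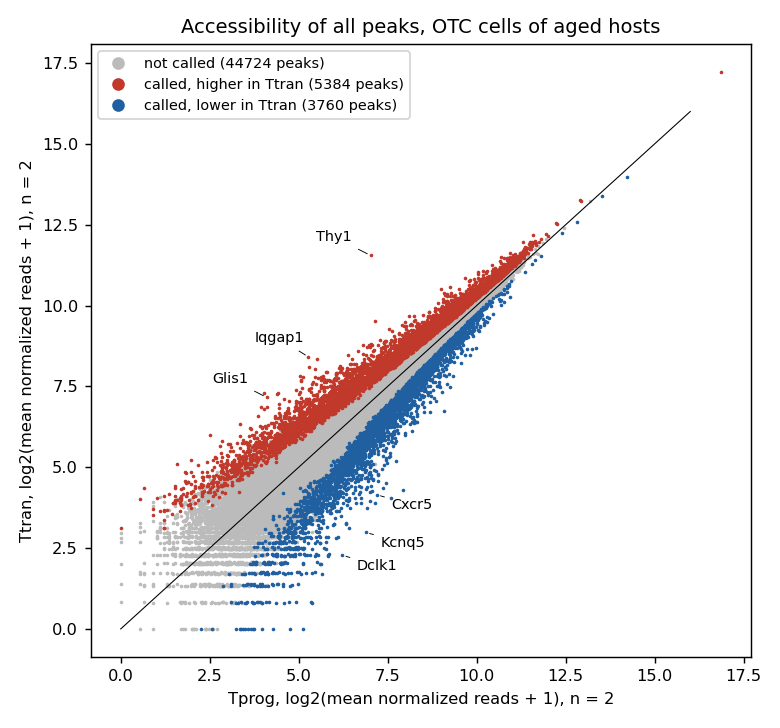
Mean normalized reads (log2 of value + 1) of each peak in Tprog (x axis) and Ttran (y axis) of aged control hosts, 2 libraries each, with called peaks coloured by direction. The peaks labelled Thy1, Glis1 and Iqgap1 lie far above the diagonal, and those labelled Cxcr5, Kcnq5 and Dclk1 far below it.

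Called rises lay more often away from promoters. Of 9254 peaks over a promoter window, 6.97% were higher and 6.60% lower, with median log2 fold changes of 0.34 and -0.48 among those called. In gene bodies, 10.4% of 25387 peaks were higher and 7.17% lower, and between genes 11% of 16468 were higher and 6.67% lower. Strong peaks were mostly called in the upward direction: among the 13467 peaks of highest mean level 19.9% were higher and 6.22% lower, whereas among the 13467 of lowest level 2.32% were higher and 4.51% lower. Level and position move together, since the median level was 454 normalized reads over promoter windows and 73.4 in gene bodies. Their separate parts were not tested. The shares over all peaks that are set beside gene lists below are not matched for level. The median log2 fold change over all peaks, called or not, also moved with level. It was -0.13 among the 13467 weakest peaks and 0.05 among the 13467 strongest. The part of depth or scaling in this was not tested.

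The genes used for sorting were read first, as a check of the labels. Havcr2, whose product Tim-3 is absent from the Tprog gate and present in the Ttran gate, had 5 peaks, of which 4 were higher in Ttran. The peak over its promoter (chr11:46452770-46455391) held 585 and 523 normalized reads in Tprog and 1256 and 1304 in Ttran. The libraries did not overlap, and the log2 fold change was 1.21 ± 0.08 (SE, n = 2 and 2, limma adjusted p 7.4e-22). The other 3 called peaks, within the gene, had log2 fold changes of 0.46 to 0.78, and the fifth was not called (-0.44). Because the gate chose these cells by Tim-3 protein, the direction at Havcr2 checks the labels and is no separate finding.

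Slamf6, a receptor of the SLAM family, is positive in both gates, and 2 of its 6 peaks were lower in Ttran. The peak 16565 bp from the gene (chr1:171965523-171966661) held 322 and 286 normalized reads in Tprog, 117 and 145 in Ttran and 53.4 and 51.3 in Tterm. Ttran lay between the other states with no overlap, with a log2 fold change against Tprog of -1.21 ± 0.25 (limma adjusted p 0.000167). The peak within the gene (chr1:171920836-171921932) fell by 0.65 ± 0.18. Its strongest peak, near the start, held 527 and 562 normalized reads in Tprog and 603 and 485 in Ttran and was not called.

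Peaks of stem-like transcription factors were more often lower than higher in Ttran. Of 196 peaks assigned to the 12 measured genes of the list, 44 were lower (22.4%) and 13 higher (6.63%). Over all peaks the shares were 6.98% and 9.99%. The median log2 fold change of the list was -0.23. Of the falls, 13 were at Foxp1, 9 at Bach2, 6 at Tcf7, 5 at Id3, 3 at Ikzf1, 2 each at Satb1 and Foxo1, and 1 each at Lef1, Myb, Bcl6 and Zeb1. Leaving out a library lowered the number of falls to 26 (without Tprog replicate 1), 31 (without Tprog replicate 2), 30 (without Ttran replicate 2) or 34 (without Ttran replicate 1). A peak was assigned to the RefSeq protein-coding gene it overlaps, or otherwise to the nearest within 100 kb, which need not be the gene it acts on.

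Tcf7 encodes TCF1, the factor that defines the progenitor state. At this gene 6 of 12 peaks were lower and none higher, and 5 or 6 were lower under every alternative run. Its leading peak, within the gene at chr11:52273512-52275959, held 628 and 578 normalized reads in Tprog, 196 and 156 in Ttran, and 89.3 and 94.4 in Tterm. Ttran was lower than Tprog in both libraries by 1.78 ± 0.20 on the log2 scale (limma adjusted p 6.4e-12) and was still above Tterm. The peak over the promoter printed above (chr11:52281225-52284085) held 483 and 523 in Tprog and 179 and 271 in Ttran, a log2 fold change of -1.19 ± 0.19 (limma adjusted p 7.17e-07). The change was uneven along the locus: the 3 peaks at chr11:52260738-52262193, chr11:52293876-52294986 and chr11:52299318-52300198 had log2 fold changes of 0.30, -0.21 and -0.00 and were not called.

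Id3, an inhibitor of E proteins kept in progenitor cells, had 5 lower peaks of 7, and 3 when Tprog replicate 1, Tprog replicate 2 or Ttran replicate 1 was left out. Its promoter peak (chr4:136143607-136144833) held 489 and 466 normalized reads in Tprog and 138 and 223 in Ttran, a log2 fold change of -1.44 ± 0.18 (limma adjusted p 1.43e-09). Satb1, an organiser of chromatin in T cells, had 2 lower peaks of 9. The one 45840 bp away (chr17:51879130-51880515) held 408 and 416 in Tprog and 78.2 and 131 in Ttran, a log2 fold change of -2.01 ± 0.32 (limma adjusted p 5.99e-07). At both genes the Ttran libraries lay below the Tprog libraries without overlap.

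Foxp1, a forkhead factor tied to quiescence of T cells, had the most lower peaks of any gene, 13 of 46, with 1 higher. That order holds for the fit of all libraries, and 8 were lower without Tprog replicate 1 or without Ttran replicate 2. A peak within Foxp1 (chr6:99497953-99498574) held 47.6 and 55 normalized reads in Tprog and 4.51 and 4.78 in Ttran, a log2 fold change of -3.21 ± 0.69. Bach2, a repressor of effector genes, had 9 lower and 4 higher peaks of 35. Without Tprog replicate 1 the Bach2 counts were 4 lower and 3 higher, without Ttran replicate 2 there were 5 lower, and without Tprog replicate 2 or Ttran replicate 1 there were 6. Lef1, a relative of TCF1, was mixed (2 higher and 1 lower of 16), and none of the 5 peaks of Klf2 was called.

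Myb, a factor needed by stem-like exhausted cells, went against the direction of the list, with 3 higher peaks and 1 lower of 14. The peak 8855 bp from Myb (chr10:21115176-21116075) held 126 and 132 normalized reads in Tprog, 522 and 371 in Ttran and 452 and 503 in Tterm. Ttran was at the level of Tterm and 1.76 ± 0.19 above Tprog on the log2 scale (limma adjusted p 5.4e-12). In Ttad the peak held 196 and 255. Foxo1, a forkhead factor of quiescent cells, had 1 higher peak (log2 fold change 1.07 ± 0.17) and 2 lower peaks (-1.73 and -0.24) of 19.

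**Figure D2:**
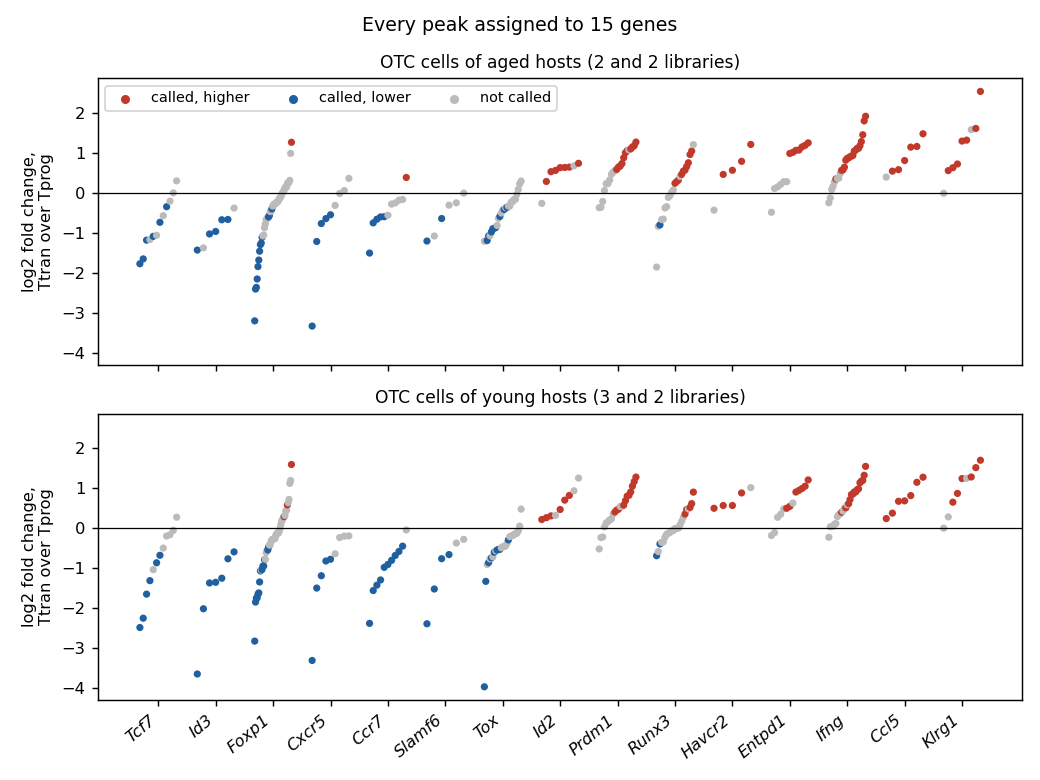
Log2 fold change of Ttran over Tprog for every peak assigned to 15 genes, one point per peak, with aged control hosts in the upper panel, young control hosts in the lower panel and called peaks coloured. Every called point of Tcf7, Id3, Cxcr5, Slamf6 and Tox lies below 0 and every called point of Id2, Prdm1, Havcr2, Entpd1, Ifng, Ccl5 and Klrg1 above 0 in both panels.

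Peaks of progenitor surface and homing receptors were also more often lower, at 27 of 146 (18.5%), with 9 higher (6.16%). Over all peaks the shares were 6.98% and 9.99%, and the median log2 fold change of the list was -0.29. The number of falls was 15 without Tprog replicate 1, 18 without Tprog replicate 2, 17 without Ttran replicate 2 and 22 without Ttran replicate 1. Cxcr5, the receptor for the follicle chemokine CXCL13, had 5 lower peaks of 9 and none higher, and 3 lower without Ttran replicate 2. Its leading peak (chr9:44554836-44555667, 28392 bp from the gene) held 125 and 168 normalized reads in Tprog, 27.1 and 6.38 in Ttran, and 15.3 and 21.1 in Tterm. Ttran and Tterm overlapped, and both lay below Tprog, by 3.34 ± 0.53 on the log2 scale for Ttran (limma adjusted p 5.59e-07).

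Ccr7, the receptor that guides T cells to lymph nodes, had 5 lower peaks of 11 and 1 higher, with 3 lower when Tprog replicate 2 or either Ttran library was left out. The peak 15659 bp from Ccr7 (chr11:99170736-99171681) held 676 and 605 normalized reads in Tprog, 214 and 234 in Ttran, and 148 and 93.5 in Tterm. It was lower in Ttran by 1.51 ± 0.24 (limma adjusted p 5.83e-07), with no overlap. Icos, a costimulatory receptor, had 3 higher and 2 lower peaks of 17, with the largest change a fall in its flank (-2.42 ± 0.55). Il6st, a shared receptor chain for cytokines of the IL-6 family, had 1 higher peak (1.76 ± 0.25) and 1 lower (-0.33) of 14. None of the 5 peaks of Il7r, the IL-7 receptor of memory cells, was called.

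Factors of exhaustion and effector differentiation had more higher than lower peaks, 63 against 25 of 300 (21% and 8.33%). Over all peaks the shares were 9.99% and 6.98%. The share of rises was near the 19.9% among the 13467 strongest peaks and the 18.6% of the housekeeping list. Falls were 6.22% and 2.33% there. The median of 0.05 over all peaks of the list was close to 0. Without Tprog replicate 1 the counts were 44 and 11, without Tprog replicate 2 they were 50 and 11, without Ttran replicate 1 they were 52 and 20, and without Ttran replicate 2 they were 48 and 12. DESeq2 gave 51 and 8. Prdm1, which encodes the effector repressor Blimp-1, had 11 higher peaks of 22 and none lower. The leading one, within the gene (chr10:44449764-44451102), held 200 and 157 normalized reads in Tprog, 462 and 397 in Ttran, and 600 and 543 in Tterm. Ttran lay between the other states, 1.27 ± 0.14 above Tprog on the log2 scale (limma adjusted p 2.25e-12). The peak over the Prdm1 promoter printed above (chr10:44457961-44459590) rose by 0.58 ± 0.11.

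Id2, which encodes another inhibitor of E proteins, had 7 higher peaks of 9 and none lower, with 5 to 7 higher under every alternative run. Runx3, a factor of cytotoxic and tissue-resident cells, had 10 higher and 1 lower of 23. Its peak at chr4:135168417 held 631 and 659 normalized reads in Tprog and 1208 and 1294 in Ttran, a log2 fold change of 0.95 ± 0.10 (limma adjusted p 1.72e-13). Zeb2, a transcriptional repressor found in terminal effector cells, had 5 higher peaks and 1 lower of 21, the lower one over its promoter (-0.34). The leading one (chr2:45054247-45056450) rose from 138 and 134 to 409 and 357, a log2 fold change of 1.48 ± 0.18.

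Tox, the factor that installs the exhaustion programme, differed from Prdm1, Id2 and Runx3 in direction. Of its 27 peaks 9 were lower in Ttran and none was higher, with 4 to 9 lower under the alternatives (4 in DESeq2, and 5 without Tprog replicate 1 or without Ttran replicate 2). The peak at chr4:6940613-6941684 held 291 and 350 normalized reads in Tprog, 149 and 151 in Ttran, and 165 and 191 in Tterm. It fell by 1.08 ± 0.22 (limma adjusted p 0.00014), and the Tterm libraries were also below Tprog. None of the 7 peaks of its relative Tox2 was called. Tbx21, which encodes T-bet, had 3 higher peaks of 9, but 0 to 3 were called under the alternatives. Nr4a3, a factor induced by receptor signalling, had a weak peak 86857 bp away with 39.6 and 20.4 normalized reads in Tprog and 0 and 4.78 in Ttran.

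The list of inhibitory receptors, Havcr2 included, had 24 higher and 6 lower of 99 peaks (median log2 fold change 0.08). These were 24.2% and 6.06%, against 9.99% and 6.98% over all peaks. The number of rises was 15 without Tprog replicate 1 or without Ttran replicate 1. Entpd1, which encodes the ectoenzyme CD39 of exhausted cells, had 7 higher peaks of 13, and 4 without Tprog replicate 1 and in DESeq2. Its promoter peak (chr19:40659633-40662398) held 246 and 223 normalized reads in Tprog, 459 and 526 in Ttran, and 682 and 594 in Tterm, with Ttran above Tprog by 1.07 ± 0.12 (limma adjusted p 6.39e-12). Ctla4 and Tigit are receptors that restrain costimulation. Ctla4 had 3 higher peaks of 12 and none lower, and Tigit had 3 higher and 1 lower (-0.47) of 11, with 1 higher and none lower without Ttran replicate 1. Pdcd1, which encodes PD-1, had 2 higher of 9, with small log2 fold changes of 0.40 and 0.34.

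Btla, a receptor found on progenitor and follicular T cells, went the other way with 2 lower peaks of 7 and none higher. The leading peak, within the gene (chr16:45251652-45252657), held 324 and 280 normalized reads in Tprog, 73.7 and 89.3 in Ttran, and 33.8 and 56.8 in Tterm. Ttran lay between the other states, 1.88 ± 0.24 below Tprog on the log2 scale (limma adjusted p 1.81e-09). Cd101, a marker of terminal exhaustion, had 2 lower peaks of 6, and the one over its promoter held 87.2 and 153 in Tprog and 73.7 and 30.3 in Ttran. The Cd101 call was lost under some alternatives.

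The list of cytotoxic and effector genes had the largest share of called peaks among the lists other than the targeted genes. Rises were 46.6% and falls 3.45% of its peaks, against 9.99% and 6.98% over all peaks. Of its 116 peaks 54 were higher and 4 lower, with a median log2 fold change of 0.39, and 44 to 46 were higher when a library was left out. All 4 peaks of Ccl3 and all 4 of Ccl4 were higher, as were 6 of 7 at Ccl5. These chemokines are made by activated CD8 T cells. The peak 17572 bp from Ccl3 (chr11:83628444-83630271) held 502 and 524 normalized reads in Tprog, 1503 and 1398 in Ttran, 1613 and 1716 in Tterm, and 1006 and 954 in Ttad.

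That Ccl3 peak rose by 1.50 ± 0.08 on the log2 scale (limma adjusted p 6.45e-28), with no overlap between states. The peak over the Ccl3 promoter printed above (chr11:83648298-83649947) rose by 0.86 ± 0.10. The peak beside Ccl4 (chr11:83665378-83666207) rose from 51 and 46.1 to 209 and 236, a log2 fold change of 2.17 ± 0.23 (limma adjusted p 1.29e-12). Ccl3 and Ccl4 are neighbours, so their peaks describe a shared region.

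Ifng, the gene of interferon gamma, had the most higher peaks of any gene, 19 of 27, with none lower and 13 to 19 higher under every alternative run. The peak at chr10:118482165-118482957 held 69.1 and 61.2 normalized reads in Tprog, 197 and 265 in Ttran, and 331 and 284 in Tterm, a log2 fold change of Ttran over Tprog of 1.80 ± 0.23 (limma adjusted p 2.67e-09). Gzmb, the gene of granzyme B, had 5 higher peaks of 9, and 3 when a Ttran library was left out. Its promoter peak (chr14:56261701-56263110) held 532 and 589 in Tprog and 919 and 824 in Ttran, a log2 fold change of 0.64 ± 0.10. Klrg1, a receptor of terminal effector cells, had 7 higher of 9, Gzmk 3 of 4, and Prf1, the gene of perforin, 1 of 6. The 4 falls of the list lay at Fasl (2 lower and 2 higher of 19), Klrk1 (1 of 7) and Lamp1 (1 of 2). The leading fall of each lost its call under some alternatives. Neither peak of Tnf was called, nor any of Klrd1, Klrc1 or Ctsw.

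**Figure D3:**
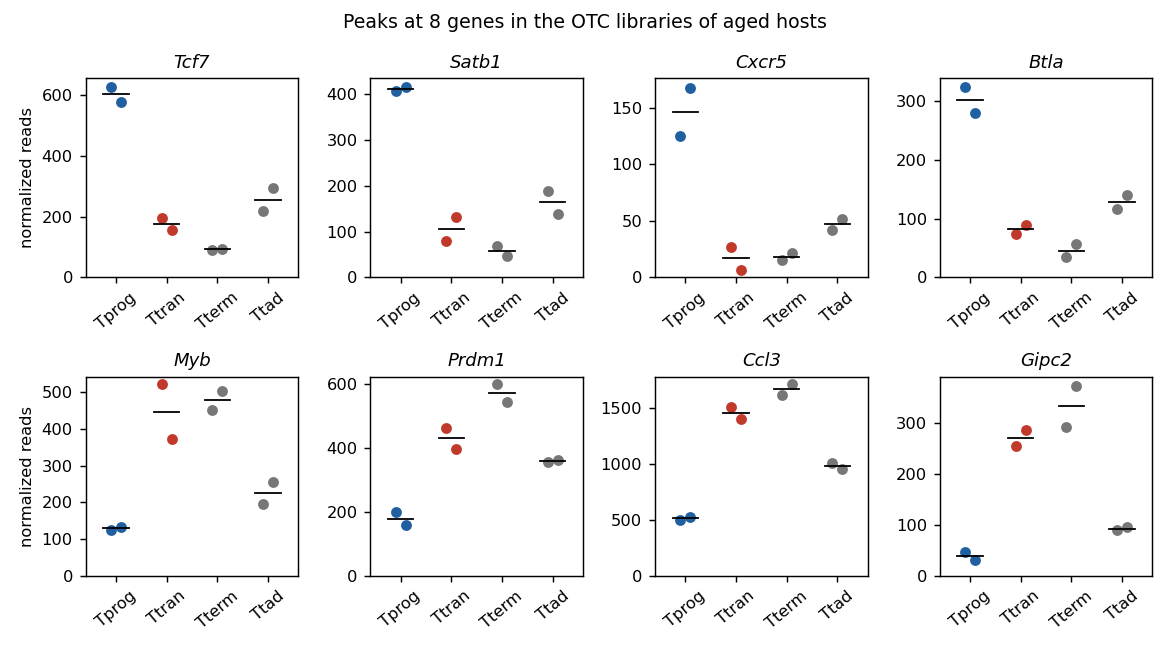
Normalized reads in the leading peaks of 8 genes in each library of Tprog, Ttran, Tterm and Ttad of aged control hosts (y axis from 0, points for libraries, 2 per state, with lines at the means). Ttran sits below Tprog at Tcf7, Satb1, Cxcr5 and Btla and above it at Myb, Prdm1, Ccl3 and Gipc2.

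Of 79 peaks of chemokine receptors and residency genes, 12 were higher and 8 lower (15.2% and 10.1%). Over all peaks the shares were 9.99% and 6.98%. Ccr2, a receptor for inflammatory chemokines, rose at 3 of 5 peaks, and the one at chr9:124102786 went from 91.7 and 115 to 254 and 212 normalized reads. Cx3cr1, often used as a marker of transitional cells, had 2 lower peaks of 5, and the stronger of them (chr9:120074076-120075379) went from 570 and 525 to 259 and 293, a log2 fold change of -0.99 ± 0.16 (limma adjusted p 1.32e-06). Itga1, an integrin of resident cells, had 5 higher of 11.

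Cytokine receptors and costimulatory genes had 25 higher and 9 lower of 118 peaks (21.2% and 7.63%, against 9.99% and 6.98% over all peaks). These shares were near the 19.9% and 6.22% among the 13467 strongest peaks. Il2rb, the beta chain of the IL-2 and IL-15 receptors, had 4 higher of 5. Tgfbr2, a receptor for TGF-beta, had 5 higher and 2 lower of 21, so its peaks moved in both directions. The costimulatory receptor Tnfrsf9 had 1 higher peak (0.47) and 1 lower of 7, the lower one within the gene (chr4:150939414-150940495), which fell from 281 and 362 to 73.7 and 123 normalized reads, a log2 fold change of -1.73 ± 0.28 (limma adjusted p 1.29e-06). Genes of the AP-1 family, which encode bZIP factors of activation, had 12 higher and 4 lower of 67 peaks (17.9% and 5.97%). After quantile normalization the AP-1 counts were 6 and 5. Mafk, a small Maf factor, rose from 440 and 463 to 958 and 974 (log2 fold change 1.10 ± 0.11). Cell cycle genes had 7 higher and 3 lower of 60 peaks (11.7% and 5%, near the 9.99% and 6.98% over all peaks), and 3 and 5 after quantile normalization. Housekeeping genes had 8 higher and 1 lower of 43 (18.6% and 2.33%), and 4 and 2 after quantile normalization. Without Tprog replicate 1 the higher and lower counts were 7 and 3 for chemokine receptors, 15 and 6 for cytokine receptors, 10 and 1 for AP-1, and 3 and 0 for both the cell cycle and the housekeeping list. Dusp5, a phosphatase of ERK that is a target of another guide of the series, had 10 higher peaks of 17 in these control cells and Zfp219 none called of 3.

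**Figure D4:**
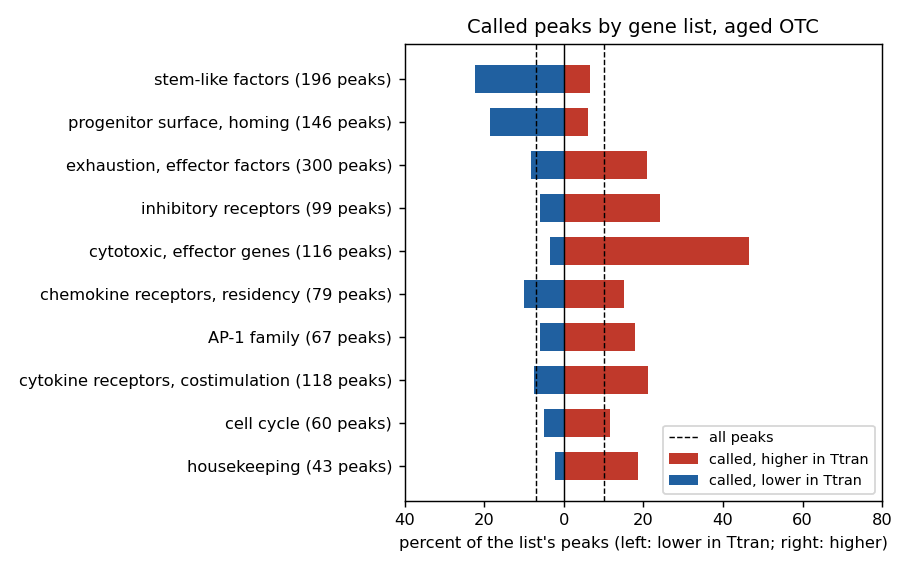
Percent of the peaks of each of 10 gene lists, the targeted genes not drawn, called higher and lower in Ttran against Tprog of aged control hosts, with dashed lines at 9.99% and 6.98%, the shares over all 53868 peaks. Of the lists drawn, the cytotoxic and effector list stands furthest above the line for rises, and the stem-like and progenitor surface lists stand furthest above the line for falls.

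The peaks with the most extreme changes lay largely outside these lists. Ordered by size among called peaks with at least 50 normalized reads in the higher state and no overlap, 1 per gene, the 12 largest rises ran from a log2 fold change of 4.53 at Thy1 to 2.78 at Plxnd1. After Thy1 came peaks at Glis1, Gsap, Iqgap1, Zfp503, Fbxo31, Me1, Nup210, Gipc2, Eif2ak4, Cmklr1 and Plxnd1. Iqgap1 encodes a scaffold of the cytoskeleton, and its peak within the gene (chr7:80715167-80715923) held 40.8 and 34.6 normalized reads in Tprog, 298 and 381 in Ttran, and 265 and 298 in Tterm. It rose by 3.13 ± 0.22 (limma adjusted p 1.05e-21), and Ttran and Tterm overlapped.

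The peak within Gipc2, a PDZ adaptor gene (chr3:152122079-152123109), held 46.4 and 30.2 normalized reads in Tprog, 256 and 287 in Ttran, and 293 and 374 in Tterm. It rose by 2.82 ± 0.22 (limma adjusted p 3.84e-19). Me1 encodes cytosolic malic enzyme, and its peak (chr9:86628877-86629206) held 20.4 in each Tprog library and 174 and 139 in Ttran. Eif2ak4 encodes the amino acid sensor GCN2, and its peak (chr2:118444270-118445474) held 34 and 29.3 in Tprog and 229 and 226 in Ttran. At all of these the Ttran libraries exceeded the Tprog libraries several times over.

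Thy1 encodes a surface glycoprotein of T cells, and the peak within it (chr9:44046603-44047436) stood apart in how it varied over the series. It held 135 and 122 normalized reads in Tprog, 2944 and 3051 in Ttran, 959 and 829 in Tterm and 4884 and 4611 in Ttad of aged control hosts. Replicates agreed closely, and the log2 fold change of Ttran over Tprog was 4.53 ± 0.14 (limma adjusted p 4.68e-47). In young control hosts the same peak held 403 and 326 in Tprog and 418, 439 and 422 in Ttran. With the Zfp219 guide in aged hosts it held 191 and 219 in Tprog and 3158 and 3153 in Ttran, and with the Dusp5 guide 177 and 222 in Tprog and 193 and 266 in Ttran. High values were therefore seen in some groups of aged hosts and not in others of the same state, and what sets them was not tested. The labels give the donors as CD45.1 and no Thy1 allele, and the sources used here do not say whether every pool had the same donors. Of the 14 peaks assigned to Thy1, 2 were higher and 1 lower, and the other rise was 0.32.

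The 12 largest falls ran from -4.23 at Bicra to -3.27 at Cul3, through peaks at Kcnq5, Dclk1, Agr3, Tmem131l, Tmem168, Pter, Tnrc6c, Akap17b, Chst15 and Cxcr5. Kcnq5 encodes a potassium channel, and its peak (chr1:21603847-21604763) held 122 and 114 normalized reads in Tprog, 9.03 and 4.78 in Ttran, and 15.3 and 13.7 in Tterm. It fell by 3.96 ± 0.53 on the log2 scale (limma adjusted p 4.48e-09). The peak within Pter (chr2:12976822-12978115) held 180 and 203 in Tprog, 12 and 19.1 in Ttran, 6.54 and 9.16 in Tterm and 94.7 ± 8.42 (SD, n = 2) in Ttad, so the Slamf6- Tim-3- cells lay between Tprog and Ttran.

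That Pter peak fell by 3.57 ± 0.58 (limma adjusted p 1.29e-06). The Ttran libraries held few reads in these peaks, and 4 of the calls were lost in some alternatives. Without Ttran replicate 2, Bicra (-2.69, limma adjusted p 0.0533), Agr3 (-1.79, 0.279) and Cul3 (-1.73, 0.221) were not called. Without Ttran replicate 1, Tmem168 was not called (-1.69, limma adjusted p 0.195). DESeq2 on the 4 libraries called none of these 4, with adjusted p of 0.0745 at Bicra, 0.414 at Agr3, 0.438 at Tmem168 and 0.187 at Cul3. The other 20 of the 24 peaks were called under every alternative that could be run.

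The same states were compared in libraries that share none with these: young control hosts, and aged hosts with the Zfp219 or the Dusp5 guide. These comparisons called 9098 (16.9%), 6407 (11.9%) and 8186 (15.2%) peaks. Rises were 9.07%, 6.47% and 9.64% of all peaks, and falls were 7.82%, 5.43% and 5.56%. Of the 5384 rises, 2632 (48.9%, and 53.9% of the young rises) were also called higher in young control hosts, 2017 (37.5%, and 57.9%) with the Zfp219 guide and 2990 (55.5%, and 57.6%) with the Dusp5 guide. Calls in the opposite direction numbered 20, 109 and 2. Of the 3760 falls, 1539 (40.9%, and 36.5% of the young falls), 1126 (29.9%, and 38.5%) and 1267 (33.7%, and 42.3%) were also called lower. All 3 other comparisons called 1347 of the rises (25%) and 620 of the falls (16.5%), and none of them called 1569 (29.1%) and 1703 (45.3%). A peak not called elsewhere was not thereby shown to differ.

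The leading genes are given beside their counts in young control hosts. Tcf7 had 6 lower peaks of 12 there, Cxcr5 5 of 9, Tox 9 of 27, Prdm1 11 higher of 22, Id2 6 of 9, Havcr2 4 of 5, Ccl3 and Ccl4 4 of 4 each, Ccl5 7 of 7 and Ifng 15 of 27. Counts were less alike at Bach2 (9 lower in aged and 18 in young hosts, 4 and 1 higher) and Ccr7 (5 and 10 lower). Rises were also less alike at Rbpj of the exhaustion and effector list (2 in aged and 15 in young hosts, of 33). The same held for Runx3 (10 and 5 higher), Tbx21 (3 and 0 higher) and Pdcd1 (2 and 0 higher). Differences between such counts were not tested. Of the 12 largest rises, 11 were also called higher in young hosts, all but Thy1, and all of the 12 largest falls were called lower. With the Zfp219 guide in aged hosts the numbers were 11 and 8, and with the Dusp5 guide 11 and 5. At the leading Tcf7 peak the log2 fold change was -1.78 in aged and -2.26 in young hosts, and at the leading Ccl3 peak it was 1.50 and 1.41.

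**Figure D5:**
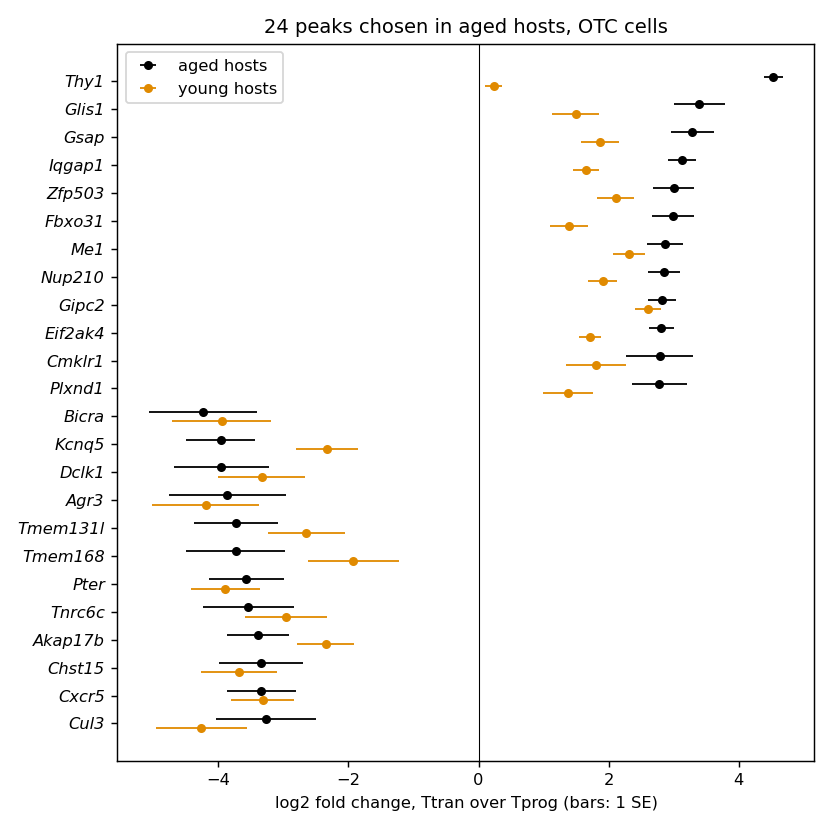
Log2 fold change of Ttran over Tprog on the x axis (bars, 1 SE) for the 24 named peaks, 1 per line, in aged (black) and young (orange) control hosts. Thy1 lies apart, at 4.53 in aged and 0.23 in young hosts; the peaks were chosen for their size in aged hosts, so the 2 colours are not on equal terms.

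The difference between the ages was tested itself, as an interaction in the same fit. The deposited column names repeat the same sample numbers in aged and young libraries, so each age has its own numbering. What the numbering stands for is not given, and its part cannot be told apart from that of age. The interaction was called at 628 peaks (1.17%). At 427 (0.793%) the Ttran over Tprog value was higher in aged hosts and at 201 (0.373%) it was lower. This split turned on the scaling, since quantile normalization called 110 and 140. Of the 427, 344 were rises in aged hosts, of which 279 were not called in young hosts, 45 were rises in both and 20 were falls in young hosts. Of the 201, 125 were falls in aged hosts, of which 100 were not called in young hosts. The difference at Thy1 was 4.30 (limma adjusted p 2.75e-34), and among the other named peaks it was 1.48 at Iqgap1, 1.10 at Eif2ak4, 1.90 at Glis1 and 1.60 at Fbxo31. With a pseudocount of 8, after quantile normalization, with the replicate block and in edgeR, Glis1 was called in none and Fbxo31 only after quantile normalization. At the list gene Rbpj the interaction was called at 4 of 33 peaks.

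Ttran was also compared with Tterm. That comparison shares the Ttran libraries, so it is not independent of the main one. It called 1735 peaks (3.22%), 1006 (1.87%) higher in Ttran and 729 (1.35%) lower. At Tcf7 the leading peak averaged between Tprog and Tterm in Ttran, with a log2 difference of 0.92 over Tterm (limma adjusted p 0.002), and at Btla the difference was 0.87 (limma adjusted p 0.026). At Havcr2, Gipc2 and Ccl3 the Ttran and Tterm levels did not pass the test for a difference (0.00, -0.29 and -0.20 on the log2 scale).

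The promoter motifs were counted over the 10044 windows that lay in a peak. TGANTCA (AP-1) was found in 7.38% of 732 windows in higher peaks, 3.51% of 684 in lower peaks, 4.20% of 8628 in peaks not called and 6.99% of all 21263 promoter windows. AGGTGTGA (T-box) was found in 1.50%, 0.439%, 0.719% and 1.15%, CTTTGAT (TCF1 and LEF1) in 3.28%, 1.90%, 2.18% and 3.22%, and GAAANTGAA (IRF) in 1.09%, 3.07%, 1.48% and 2.11%. For CCGGAAG (Ets), the shares were 16%, 15.9%, 21.3% and 11.6%. Most called peaks lie outside promoters and were not searched, and these shares were not tested.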

How the data were processed

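Per the labels' protocols, paired 50-base ATAC-seq reads were made from sorted cells. The authors deposited a table of normalized signal (reads per peak divided by a size factor of the library) for 53868 peaks and 48 libraries in 21 groups. The submitters' processing notes name Bowtie2 2.2.9, Picard 2.8.0, MACS2 2.1.1, SAMtools 1.3.1, DESeq2 1.28.1 and mm10, with no roles. Start and end of peaks are printed as deposited, and whether starts count from 0 is not given in the sources used here. Values of all 48 libraries came within 0.01 of a whole number of reads after division by a step per library. Recovered reads of 47 libraries were used in edgeR, and 1 library of another group was left out.

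The main test was limma 3.58.1 (R 4.3.3; lmFit and eBayes with trend) on log2(signal + 1), with a mean per group, 27 residual degrees of freedom and Benjamini-Hochberg adjustment over all peaks. No filter on weak peaks was used. At weak peaks a fold change on this scale can differ from that of a count model. It was larger in size than in edgeR at weak peaks of Jun (-2.05 against -1.38) and Maf (-1.89 against -1.22). The direction over all weak peaks was not counted. Alternatives were a pseudocount of 8, leaving out the weakest 25% of peaks, other scalings, fewer libraries, quality weights, a replicate block, edgeR 4.0.16, DESeq2 1.42.0, thinning and leaving out each library. On simulated data limma recovered 56% of 200 peaks changed 2-fold in this comparison, with 41 false calls, and edgeR 53%, with 20. Of the false calls, 20 in limma and 5 in edgeR lay at peaks with a series mean under 50 normalized reads. In both tools the false share of the simulated calls was above the 0.05 set for the adjusted p. The simulation changed 200 of 53868 peaks, with a spread of 3 times counting noise, whereas 17% of peaks were called in the data. The false share depends on the share changed, so it cannot be carried over to the 9144 calls.

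Peaks were named from RefSeq (GRCm38.p6): a gene whose promoter window or body they overlap, or the nearest within 100 kb. Named peaks were the 12 largest rises and falls with at least 50 normalized reads in the higher state, no overlap and 1 peak per gene (predicted genes left out), and up to 4 genes per direction of each list by size of change; other peaks were named after their values were seen. The members, lists and motifs were chosen with earlier results of these data known. The planned reading of sequence around peak centres was not run, and promoter windows are shown in its place.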

Additional observations from a re-analysis of the deposited data

Results flagged for a closer look

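The change from Tprog to Ttran differed between aged and young control hosts at 628 peaks in the interaction test (limma). Values below are the log2 fold change in aged hosts minus that in young hosts, and the part of batch or depth in them was not tested. Among the largest rises the difference was 4.30 at Thy1, 1.90 at Glis1, 1.48 at Iqgap1, 1.60 at Fbxo31 and 1.10 at Eif2ak4.

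Among list genes it was 0.59 at Mafk and -2.99 at Nr4a3, whose peak had a Ttran library at 0. The Nr4a3 call was lost in each of the 4 settings named below, and with a pseudocount of 8 the difference was -1.36 (limma adjusted p 0.207). Peaks at gene loci that were picked after their values were seen were also called. At Id3 a peak 36465 bp away fell less in aged hosts (-1.03) than in young hosts (-2.02), a difference of 0.99. At Ccr7, differences of 0.73 and 0.70 were seen at 2 flanking peaks. They were 0.53 at Prdm1, 0.59, 0.47 and 0.51 at Runx3, 0.61 at Pdcd1 and 0.60 at Ifng.

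The peaks within Ppp2r2c (-2.89) and Thap12 (-2.25), also picked after their values were seen, were lower in Ttran of aged hosts (-1.22 and -0.97) and higher in Ttran of young hosts (1.67 and 1.27). Of these 18 peaks, 15 were called in edgeR, 15 with a pseudocount of 8, 15 with the replicate block and 9 after quantile normalization. Each kept its sign in these settings.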

How the results depend on the processing

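The count of 9144 called peaks stayed within 1.5 times under a pseudocount of 8, without the weakest 25% of peaks, after quantile normalization (8749) or other size factors, in the 4 or the 24 libraries alone, with quality weights, in edgeR (8832) and after thinning. DESeq2 called 6012, with 2201 lower, and 2211 peaks of at least 2-fold change against 3416. Leaving out a library gave 5294 to 6810 called, 3524 to 4003 higher, 1770 to 2926 lower and 2239 to 3126 of at least 2-fold change. A left-out library leaves its state with 1, which is assumed to vary like the other groups. The interaction count fell from 628 to 250 after quantile normalization. Replicate numbers pair nothing here by the labels, and same-numbered libraries did not deviate together (correlation -0.0036). With the replicate block 9024 peaks were called, 5300 higher and 3724 lower. The young comparison then gave 8021, the interaction 457, and the Zfp219 and Dusp5 comparisons 6318 and 8067. Of 351 values of the 24 named peaks 343 kept their call and none changed sign. Of 75 list peaks 35 were called in every setting and none changed sign. Weak peaks rest on few reads: 15 called peaks had both Ttran libraries at 0. The planned edgeR fit held 47 libraries.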

Other observations

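Genes outside the lists also had many called peaks, named here after their values were seen. Prex1, an activator of Rac, had 14 higher of 32, Cdk6, a kinase of the cell cycle, 13 of 23, Rgs3, a regulator of G-protein signalling, 12 of 31, and the semaphorin Sema4d 11 of 17. Among falls, Asap1 had 12 lower of 30 and Inpp4b, a phosphoinositide phosphatase, 12 of 42. Of 15070 genes with a peak, 3059 had a higher peak, 2521 a lower one and 590 both. Genes with more peaks have more chances of a call, and these counts were not tested.

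The strongest peak of the table, 45855 bp wide on an unplaced scaffold, held 0.926% and 0.895% of all normalized reads in Tprog and 1.14% and 1.11% in Ttran.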
